A study of Mus musculus with 12 samples.

Results

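The 6 genes described here were grouped as cell junction and polarity genes: Cldn1 (claudin-1), Ocln (occludin), Marveld2 (tricellulin), Marveld1 (a relative of occludin and tricellulin), Cdh1 (E-cadherin) and Dsg1c (a desmoglein-1). They were picked by name from the genes that the authors' own test had selected in mouse liver, so their differences between diets chose them and are given as a description. All 6 were among the 336 genes listed for a high-fat diet against chow, and Dsg1c was also among the 33 genes listed for PCN against vehicle. Liver RNA came from 12 C57BL/6N mice in 4 groups of 3, each mouse with its own library, and every mouse was deficient in PXR, the pregnane X receptor, so no group had the receptor. From 6 weeks of age, 3 mice (670, 695 and 707) ate regular chow for 18 weeks and 3 (659, 669 and 696) ate a high-fat diet (HFD), with no treatment given in the labels. Another 3 HFD-fed mice (682, 697 and 705) were injected intraperitoneally with vehicle containing 30% DMSO, and 3 (688, 698 and 706) with PCN (pregnenolone-16alpha-carbonitrile, a rodent PXR ligand) at 50 mg/kg, daily over 4 days. Sex is not in the labels, nor is how PXR was removed, and they do not say which cells the liver pieces held. Of 10 hepatocyte markers, 9 of them with a symbol in the gene annotation, 0 were among the rows held of either table. The tissue label was thus not checked, and Nr1i2, which encodes PXR, was not analysed here.

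Values are normalized counts, that is raw reads per gene divided by the authors' size factor for the mouse, and errors are the SD over 3 mice. For the diet table the factors spanned 0.8286 to 1.1372 and the listed genes together held 547431 to 920106 reads per mouse; for the PCN table these were 0.7373 to 1.2576 and 34989 to 103036. Whole library depths are unknown. An adjusted p of a gene is the one in the authors' deposited table, from their test across about 24980 genes for diet and 25300 for PCN, and "called" means that the gene was listed with an adjusted p under 0.05. In the diet table the last of the 336 listed genes ranked 404 by p-value, so some genes that pass 0.05 are not among the rows held, and a gene that is not listed may or may not have passed. In whole liver RNA, fewer cells of a type and less RNA per cell cannot be told apart.

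Tight junctions seal the space between epithelial cells and separate the apical from the basolateral membrane. Claudins form the sealing strands, occludin lies along them, and tricellulin gathers at the corners where several cells meet; occludin, tricellulin and Marveld1 share the MARVEL membrane domain. E-cadherin is the calcium-dependent adhesion protein of adherens junctions, and desmogleins are the cadherins of desmosomes, which anchor intermediate filaments. In liver, tight junctions close the bile canaliculus between hepatocytes and keep bile out of the blood, and E-cadherin is more abundant in periportal than in pericentral hepatocytes.

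On HFD, 4 of the 6 genes were lower (Cldn1, Ocln, Marveld2 and Cdh1) and 2 were higher (Marveld1 and Dsg1c). Across the genes the authors tested, 0.484% were listed as lower and 0.861% as higher at an adjusted p under 0.05, and every member was in those lists by the way it was chosen. By ratio of means, Cdh1 was 31st, Cldn1 37th, Marveld2 52nd and Ocln 108th of the 121 lower genes, whose median was 1.99-fold. Dsg1c was 52nd and Marveld1 191st of the 215 higher genes, whose median was 2.31-fold. The diet table ends at an adjusted p of 0.0474 and an absolute log2 fold change of 0.6; the PCN table ends at 0.09547 and the same fold change. The members nearest the limits of the diet table were Cdh1, with an adjusted p of 0.0381, and Ocln, with a deposited log2 fold change of -0.66.

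**Figure D1:**
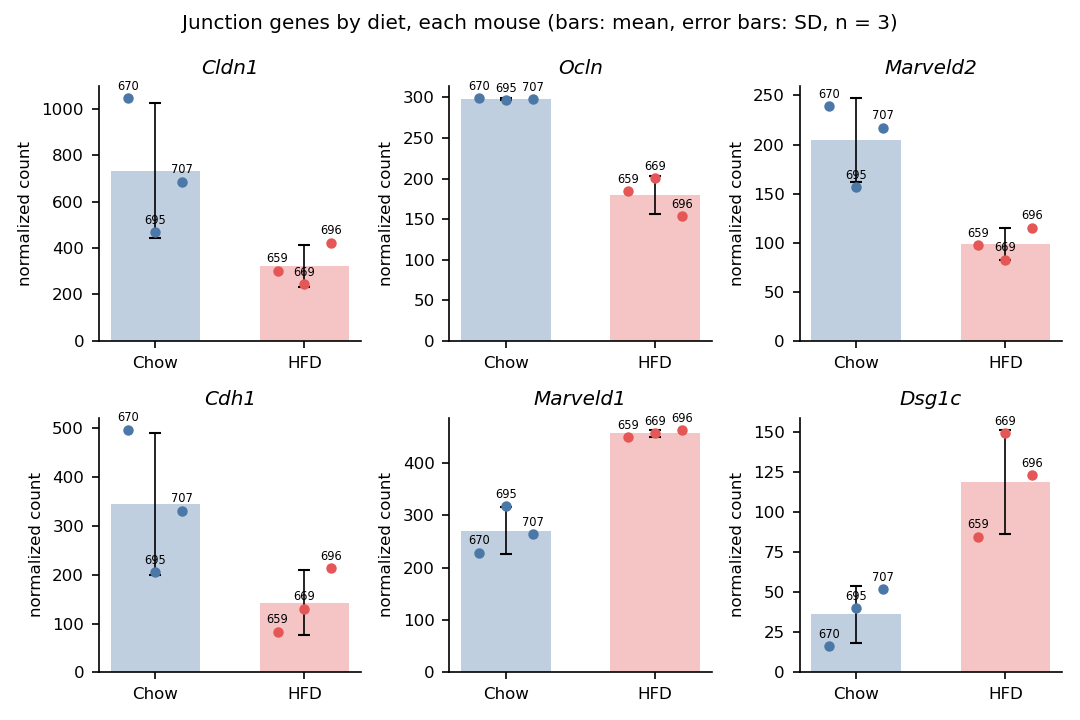
Normalized counts (y axes, each from 0) of the 6 junction genes in 3 chow-fed and 3 HFD-fed mice; points are mice with their numbers, bars are means and error bars are SDs. The 2 sets of 3 points are apart for 5 genes, as for 99.4% of all listed genes, and for Cdh1 HFD mouse 696 at 213.67 lies above chow mouse 695 at 205.44.

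The stretches upstream of the start sites of the members on the tight junction list are shown first, and the letters let them be compared. Of these genes 3 were lower and 1, the occludin relative Marveld1, was higher. RefSeq promoter windows on GRCm38.p6 are given for 4 of the 6 members. No entry was found for Cdh1, and Dsg1c was left out of this comparison. Marveld1 is thus the only gene here that was higher on HFD. Each printed stretch is the 250 bases before the RefSeq start site, 5′ to 3′ on the gene's strand, in lower case, with GC boxes (GGGCGG, or CCGCCC on the other strand) in capitals. The Cldn1 stretch is chr16:26371840-26372089 (minus strand), that of Ocln chr13:100552719-100552968 (minus), that of Marveld2 chr13:100616972-100617221 (minus) and that of Marveld1 chr19:42147139-42147388 (plus).
Cldn1: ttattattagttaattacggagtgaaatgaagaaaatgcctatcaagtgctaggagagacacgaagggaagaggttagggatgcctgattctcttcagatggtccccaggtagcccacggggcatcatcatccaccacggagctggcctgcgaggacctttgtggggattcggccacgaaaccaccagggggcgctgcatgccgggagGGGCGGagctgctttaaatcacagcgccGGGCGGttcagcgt
Ocln: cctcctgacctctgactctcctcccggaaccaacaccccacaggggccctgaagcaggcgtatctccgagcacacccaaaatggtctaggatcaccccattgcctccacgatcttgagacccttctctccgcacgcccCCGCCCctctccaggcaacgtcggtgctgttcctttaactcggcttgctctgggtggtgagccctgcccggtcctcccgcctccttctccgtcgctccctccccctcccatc
Marveld2: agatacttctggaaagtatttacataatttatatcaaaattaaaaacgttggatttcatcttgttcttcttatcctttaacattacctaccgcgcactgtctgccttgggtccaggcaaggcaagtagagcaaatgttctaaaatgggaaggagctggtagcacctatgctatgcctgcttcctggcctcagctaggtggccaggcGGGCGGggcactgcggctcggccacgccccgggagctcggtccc
Marveld1: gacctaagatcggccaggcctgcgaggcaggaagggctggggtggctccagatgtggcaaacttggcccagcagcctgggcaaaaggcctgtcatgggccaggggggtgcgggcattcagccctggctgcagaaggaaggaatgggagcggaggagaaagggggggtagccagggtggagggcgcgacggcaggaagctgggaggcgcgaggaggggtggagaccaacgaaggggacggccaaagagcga
The 3 lower genes held GC boxes (2 in Cldn1, 1 in Ocln and 1 in Marveld2), and Marveld1 held 0; among 32851 RefSeq mouse promoter stretches of the same length, 32.7% held at least 1. TATAAA was found once, in Marveld2, and in 12.4% of all stretches. CACCTG, the E-box that Snail-type repressors of epithelial genes are known to bind, was found in 0 of the 4, against 17.2% of all stretches, and CCAAT in 0 of the 4, against 33.8%. Both strands were searched for each motif, and the motifs do not overlap one another. GC content was 55.6% for Cldn1, 64% for Ocln, 50.4% for Marveld2 and 66.8% for Marveld1, around a median of 52.4% over all stretches. A match is a string of letters in a window, not a site.

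Cldn1 encodes the claudin of the sealing strand. It read 1045.4, 469.43 and 685.51 in chow mice 670, 695 and 707, and 302.73, 244.35 and 422.95 in HFD mice 659, 669 and 696. The groups did not overlap, but the highest HFD mouse and the lowest chow mouse were only 1.11-fold apart. The means were 733 ± 291 and 323 ± 91.1 (SD, n = 3 each), 2.27-fold lower on HFD, and the authors' deposited table gives a log2 fold change of -0.93 (SE 0.23) with a DESeq2 adjusted p of 0.008834. Without chow mouse 670, the highest of the 6, the ratio was 1.79-fold. Cldn1 (ENSMUSG00000022512) is a coding gene at chr16:26356642-26371841 on the minus strand of GRCm38.

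Ocln, which encodes occludin, was the steadiest of the 6 genes in chow-fed mice, at 298.98, 296.64 and 298.1. The HFD-fed mice 659, 669 and 696 read 184.35, 200.22 and 153.88, all below every chow-fed mouse. The means were 297.9 ± 1.18 and 179 ± 23.5 (SD, n = 3 each), 1.66-fold lower on HFD, with a deposited log2 fold change of -0.66 (SE 0.17) and a DESeq2 adjusted p of 0.01049. The chow spread of 0.397% of the mean is far below that of the other 5 genes, at 16.6% to 49.6%. With 247 to 309 raw reads in each of those mice, counting error alone is larger than that spread.

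Marveld2, which encodes tricellulin, read 239.38, 156.48 and 217.24 in chow mice 670, 695 and 707 and 97.6, 82.9 and 115 in HFD mice 659, 669 and 696. Every HFD-fed mouse was below every chow-fed mouse, with the nearest values 1.36-fold apart. The means were 204 ± 42.9 and 98.6 ± 16.2 (SD, n = 3 each), 2.07-fold lower on HFD, with a deposited log2 fold change of -0.88 (SE 0.21) and a DESeq2 adjusted p of 0.004717. The gene (ENSMUSG00000021636, chr13:100595957-100616971, minus strand) spans the small gene Gm24261 on the opposite strand, which covers 0 of its exon bases.

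Ocln (ENSMUSG00000021638, chr13:100496507-100552718, minus strand) and Marveld2 are neighbours on the same strand. Between them lie 43238 bases that hold 2 non-coding genes (Gm48596 and Gm8847) and 0 coding genes, and each is the listed gene nearest to the other. For the other 4 members, the nearest listed gene was at least 314817 bases away. Their levels did not keep a fixed proportion: the ratio of Ocln to Marveld2 counts was 1.249, 1.896 and 1.372 in chow mice 670, 695 and 707 and 1.889, 2.416 and 1.336 in HFD mice 659, 669 and 696.

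Marveld1, the relative of occludin and tricellulin that has also been described at microtubules and in the nucleus, went the other way. It read 228.63, 317.76 and 264.31 in chow mice 670, 695 and 707, and 449.12, 457.48 and 463.4 in HFD mice 659, 669 and 696. The HFD-fed mice lay within 1.03-fold of one another and above every chow-fed mouse. The means were 270.2 ± 44.9 and 457 ± 7.17 (SD, n = 3 each), 1.69-fold higher on HFD, with a deposited log2 fold change of 0.69 (SE 0.17) and a DESeq2 adjusted p of 0.00512. Scaling by TMM over the listed genes, which moves the median log2 fold change of the diet table by -0.64, gives Marveld1 a log2 ratio of 0.12, the nearest to 0 of any member. Marveld1 (ENSMUSG00000044345, chr19:42147400-42151703, plus strand) is a gene of 1 exon block.

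Cdh1, which encodes E-cadherin, was the most variable of the 4 lower genes. Chow mice 670, 695 and 707 read 496.34, 205.44 and 330.69, and HFD mice 659, 669 and 696 read 83.1, 130.25 and 213.67. HFD mouse 696 lay above chow mouse 695, so the groups overlapped, which held for only 2 of the 336 listed genes. The means were 344 ± 146 and 142 ± 66.1 (SD, n = 3 each), 2.42-fold lower on HFD, with a deposited log2 fold change of -0.90 (SE 0.26) and a DESeq2 adjusted p of 0.0381, place 115 of the 121 lower genes. Leaving out 1 mouse gave 1.88-fold (without chow mouse 670) to 3.23-fold (without HFD mouse 696). Cdh1 (ENSMUSG00000000303) lies at chr8:106603351-106670246 on the plus strand.

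**Figure D2:**
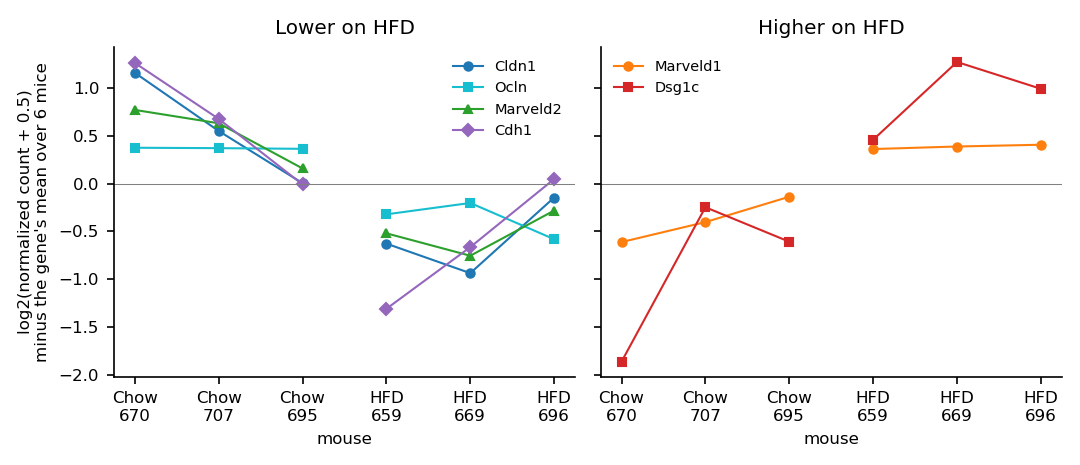
Each gene's log2(normalized count + 0.5) minus its own mean over 6 mice (y axis) for each mouse (x axis), genes lower on HFD at left and higher at right; lines join mice of 1 group and carry no order. Chow mouse 670 lies farthest from the HFD-fed mice for all 6 genes, and Ocln is flat across the chow-fed mice.

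Chow mouse 670 was the chow-fed mouse farthest from the HFD group in 6 of 6 members, highest for the 4 lower genes and lowest for Marveld1 and Dsg1c. The same mouse was farthest for 157 of all 336 listed genes (46.7%), mouse 695 for 25.3% and mouse 707 for 28.0%. In the chow group the order was 670, 707, 695 from high to low for Cldn1, Ocln, Marveld2 and Cdh1 alike, although the Ocln values differ by 1.01-fold in all. On HFD no such order was shared: mouse 696 was highest for Cldn1, Marveld2 and Cdh1 and lowest for Ocln. Without mouse 670 the ratios were 1.79-fold lower for Cldn1, 1.66-fold for Ocln, 1.90-fold for Marveld2 and 1.88-fold for Cdh1, and 1.57-fold higher for Marveld1 and 2.59-fold for Dsg1c.

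Cdh1 and Cldn1 kept close to 1 proportion in 5 of the 6 mice. The ratio of Cdh1 to Cldn1 counts was 0.4748, 0.4376 and 0.4824 in chow mice 670, 695 and 707 and 0.533 and 0.5052 in HFD mice 669 and 696. It was 0.2746 in HFD mouse 659, whose Cdh1 was the lowest of all while its Cldn1 was not. Likeness of pattern was measured over these 6 mice as the root mean square difference of log2(normalized count + 0.5), centred on each gene's mean. For Cdh1 the nearest of the 335 other listed genes, predicted genes left out, were Cldn1 at 0.317 and Marveld2 at 0.41, against a median of 1.24. For Cldn1 they were Inhba at 0.190, which encodes an activin subunit, and Marveld2 at 0.202 (median 1.13). All listed genes differ by diet, so genes of 1 direction are alike by selection.

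The other nearest patterns came from outside the junction genes, with 1 exception. Ocln was nearest to Pgap1, a GPI-anchor remodelling enzyme (0.101), and C1galt1c1, a chaperone of O-glycosylation (0.128), against a median of 0.878. Marveld2 was nearest to Unc13b, a vesicle priming protein (0.113), and Hacd1, a fatty acid elongation enzyme (0.116), against 1.03. Marveld1 was nearest to Lin7a, a member of the polarity list described below (0.0637), and Lect2, a secreted liver protein (0.0822), against 0.703. Dsg1c was nearest to Spry4, an inhibitor of receptor tyrosine kinase signalling (0.217), and Pcsk4, a proprotein convertase (0.243), against 0.864.

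Levels of different genes were set side by side per kilobase of annotated exon (normalized count per kb). In chow-fed mice Cldn1 came first at 151.5 ± 60.1, then Cdh1 at 75.2 ± 31.9, Ocln at 70.6 ± 0.278, Marveld1 at 62.8 ± 10.4, Marveld2 at 60.4 ± 12.7 and Dsg1c at 8.87 ± 4.40 (SD, n = 3 each). Ranges of all neighbours in that order overlapped except those of Marveld2 (46.3 to 70.8) and Dsg1c (4.06 to 12.7). In HFD-fed mice the order was Marveld1 at 106.1 ± 1.71, Cldn1 at 66.8 ± 18.8, Ocln at 42.5 ± 5.58, Cdh1 at 31.1 ± 14.5, Dsg1c at 29.2 ± 7.95 and Marveld2 at 29.1 ± 4.78 (SD, n = 3 each). Marveld1, in place 4 on chow, stood above every other member in all 3 HFD-fed mice. Cldn1 (50.5 to 87.4) lay above all 3 Ocln values (36.5 to 47.4), and the ranges of the later neighbours in the order overlapped.

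**Figure D3:**
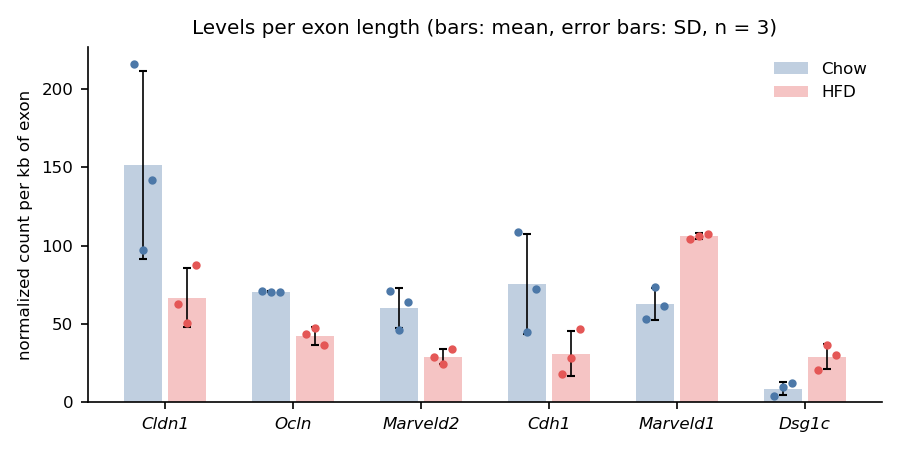
Normalized count per kb of exon (y axis, from 0) of the 6 genes in chow-fed and HFD-fed mice; points are mice, bars are means and error bars are SDs (n = 3). Cldn1 is first on chow at 151.5 and Marveld1 is first on HFD at 106.1, and Dsg1c stands apart at the bottom only on chow.

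Dsg1c, which encodes a desmoglein best known from skin desmosomes, had the largest ratio of the 6. Chow mice 670, 695 and 707 gave 17, 42 and 43 raw reads, or 16.61, 40.3 and 51.9 normalized counts. HFD mice 659, 669 and 696 gave 94, 139 and 140 reads, or 84.9, 149.6 and 123.1, all above every chow-fed mouse. The means were 36.3 ± 18.0 and 119 ± 32.5 (SD, n = 3 each), 3.29-fold higher on HFD, with a deposited log2 fold change of 1.16 (SE 0.27) and a DESeq2 adjusted p of 0.002369. Without chow mouse 670 the ratio was 2.59-fold, and without chow mouse 707 it was 4.19-fold. Dsg1c (ENSMUSG00000034774) lies at chr18:20247340-20285031 on the plus strand.

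The reads of Dsg1c are less certain than those of the other members. Of 4039 stretches of 50 bases in its transcript, 29.6% also occur in transcripts of other genes, 26.2% in Dsg1a and 24.2% in Dsg1b, its close copies. For Cldn1, Ocln, Marveld2, Marveld1 and Cdh1, 0% do. How reads that fit several genes were counted is not given in the sources used here.

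In the PCN table, which asks what the ligand does in livers without PXR, Dsg1c was lower with PCN. Vehicle mice 682, 697 and 705 read 504.55, 343.34 and 228.2, and PCN mice 688, 698 and 706 read 143.92, 160.8 and 134.28. Every PCN-treated mouse was below every vehicle-treated mouse, as the groups were apart for all 33 listed genes, and the vehicle-treated mice were spread widely while the PCN-treated mice were close together. The means were 359 ± 139 and 146 ± 13.4 (SD, n = 3 each), 2.45-fold lower with PCN, with a deposited log2 fold change of -0.84 (SE 0.17) and a DESeq2 adjusted p of 0.004391. With the authors' size factors that call was lost in edgeR (adjusted p of 0.647) and in a DESeq2 refit to the listed genes (adjusted p of 0.289). Each of these fits called 2 higher and 0 lower of all 33 listed genes, so every listed lower gene lost its call. The edgeR fits that left out 1 mouse called Dsg1c only without vehicle mouse 705, where 4 higher and 4 lower listed genes were called. The deposited adjusted p is the smallest, and the ratio the 3rd largest, among the 12 lower genes listed, and 0.0395% of the genes tested were listed as lower at an adjusted p under 0.05. Without vehicle mouse 682 the ratio was 1.95-fold.

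Among the listed genes near Dsg1c in pattern over these 6 mice was Cyp2a4, a cytochrome P450 gene that is more abundant in female than in male mouse liver, at 0.218, against a median of 1.16. Cyp2a4 read 393.33, 253.99 and 190.83 in vehicle mice 682, 697 and 705, and 114.97, 113.65 and 151.49 in PCN mice 688, 698 and 706. On HFD against chow Cyp2a4 was higher, at 269.8 ± 102 against 24.6 ± 1.85 (SD, n = 3 each), with a deposited adjusted p of 4.14e-22. Dsg1c and Cyp2a4 were thus each listed as higher on HFD and lower with PCN. Of 12 female-biased liver genes 4 were called on HFD, all higher, beside 0.861% of all genes tested listed as higher. The summed level of these 4 was 997 to 1419 on HFD against 314 to 543 on chow. They were selected by this same contrast, so their diet difference was fixed by that choice. With PCN Cyp2a4 alone was called, as lower, beside 0.0395% of all genes tested listed as lower. The part of the female-biased genes in the Dsg1c result was not tested. The tables were normalized separately and share no mouse, so the Dsg1c level of 119 ± 32.5 in HFD-fed mice and that of 359 ± 139 in vehicle-injected HFD-fed mice are not on 1 scale.

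**Figure D4:**
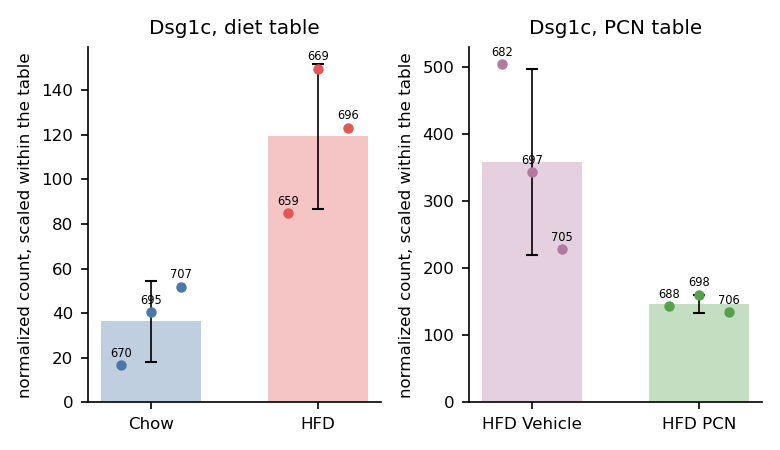
Dsg1c in the diet table (left) and the PCN table (right), as normalized counts scaled within each table (y axes from 0); points are mice with their numbers, bars are means and error bars are SDs (n = 3). HFD-fed mice lie above chow-fed mice and PCN-treated mice lie below vehicle-treated mice, with the widest spread in the vehicle group.

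Other junction genes were counted from lists. On lists of tight junction, adherens junction, desmosome, gap junction and polarity genes with the 6 members left out, 2 of 104 genes were called on HFD, both higher, where 0.861% of all genes tested were listed as higher and 0.484% as lower, and 0 were called with PCN. The 102 others were not among the rows held, which gives no value for them, changed or not. Only 102 of the 104 symbols are in the gene annotation, so the remaining names may not have been findable. Ildr2, an angulin-family relative of the receptors that recruit tricellulin, was 2.05-fold higher, from 635 ± 135 to 1303 ± 253 (SD, n = 3 each), with a DESeq2 adjusted p of 0.0003547. It read 790.43, 573.11 and 541.89 in chow mice 670, 695 and 707 and 1338.3, 1536.1 and 1033.2 in HFD mice 659, 669 and 696, with no overlap. Lin7a, a scaffold of the Crumbs polarity complex, was 1.64-fold higher, from 223 ± 23.7 to 367 ± 16.8 (SD, n = 3 each), with a DESeq2 adjusted p of 0.006391. Its values were 199.32, 246.72 and 223.27 in chow mice 670, 695 and 707, and 349.72, 383.21 and 367.56 in HFD mice 659, 669 and 696.

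With the members included, 5 of 32 tight junction genes (2 higher, 3 lower), 1 of 17 adherens junction genes, 1 of 16 desmosome genes, 0 of 9 gap junction genes and 1 of 36 polarity genes were called on HFD, beside 0.861% of all genes tested called higher and 0.484% called lower. The members were chosen among called genes, so their part of these counts was fixed by that choice and nothing is read from it. Marveld1 was counted on the tight junction list as a relative of occludin and tricellulin. Of the 32 tight junction and 36 polarity symbols, 31 and 35 are in the gene annotation. Of 14 genes of the bile canaliculus and apical transport, among them the bile salt export pump gene Abcb11, 0 were among the rows held. Of 11 genes on a list of E-cadherin repressors and mesenchymal genes, 1 was listed: Vim, which encodes vimentin and is also on the stellate cell list, at 308 to 416 on HFD against 208 to 262 on chow. Of 10 genes of factors that induce claudins and occludin, 0 were among the rows held.

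Markers of other cells were listed for diet beside the junction genes, and their counts stand against the same shares of all genes tested, 0.861% higher and 0.484% lower. Each summed level below covers only the called markers of its list, and the other markers have no values here. The called markers were selected by this same contrast, so the diet difference of each was fixed by that choice. Of 12 stellate cell and fibroblast markers 4 were called, all higher (Col1a1, Col1a2, Col3a1 and Vim), with a summed level of 633 to 732 in chow-fed and 1671 to 3262 in HFD-fed mice. Of 12 macrophage markers 2 were called, both higher (Itgax and Mmp12), with a summed level of 12.5 to 25.3 against 71.2 to 119. Of 12 cholangiocyte, 10 endothelial and 10 keratinocyte markers, 0 were among the rows held. Cdh1 was the 1 called gene of 15 periportal hepatocyte markers. Of 16 pericentral markers 3 were called, Cyp1a2 and Avpr1a lower and Lect2 higher, with a summed level of 3902 to 7117 on chow and 2472 to 3738 on HFD. With PCN, 1 of the 12 macrophage markers, Cd163, was higher, at 938 to 1286 against 503 to 690, and the others were not among the rows held. The diet shares do not apply to that comparison, in which 33 of about 25300 genes tested were listed in either direction. The part of these cells in the junction gene results was not tested.

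The size of each difference was recomputed under other choices. The 4 lower genes stayed lower and the 2 higher genes stayed higher in all 72 alternatives of the diet table, among them leaving out each mouse. For every member but Cdh1 the groups did not overlap. Leaving out a mouse, taking medians or taking means of logs could then not reverse a direction, so those outcomes were fixed in advance. The calls were less stable. With the authors' size factors and adjustment over about 24980 genes, edgeR called 0 of the 6, with adjusted p-values from 0.336 to 0.660. The same fit called 8 higher and 1 lower of all 336 listed genes. All 6 members passed 0.05 unadjusted, as did all 331 listed genes that were fitted. The listed genes were selected by this same contrast, so that outcome was fixed by the choice. A DESeq2 refit with the same factors called 1 of the 6, Dsg1c, with an adjusted p of 0.0227. It called 105 higher and 54 lower of all 336 listed genes.

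**Figure D5:**
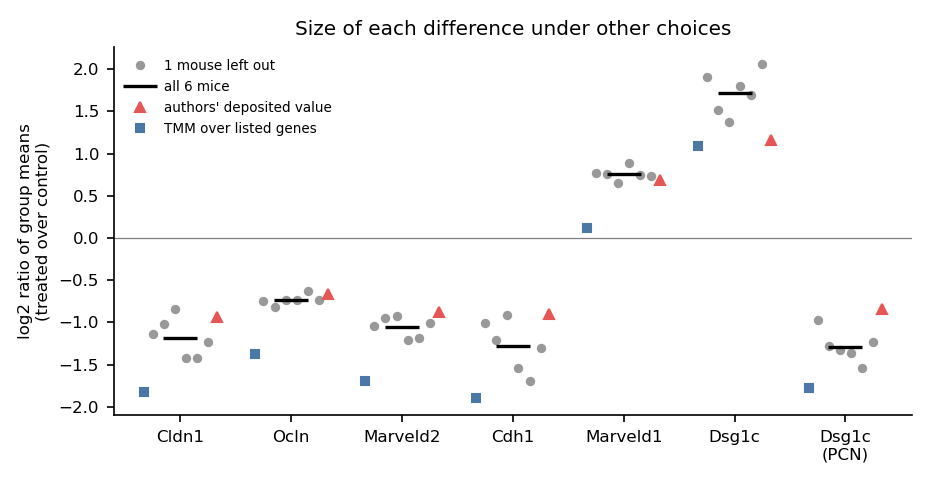
The log2 ratio of group means (y axis) of each gene with all 6 mice (black line), with each mouse left out (grey points), with TMM scaling over the listed genes (blue squares) and as deposited by the authors (red triangles); "Dsg1c (PCN)" is PCN against vehicle, the others HFD against chow. No symbol crosses 0, and Marveld1 comes nearest, at 0.12 with TMM.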

How the data were processed

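The deposited values are raw counts of reads per gene for each mouse. Per the file headers, the authors also gave a mean, a log2 fold change with its SE, a test score (the statistic), a p-value and its adjusted form. HISAT2, HTSeq and DESeq2 and the GRCm38 (mm10) genome are named in the submitters' processing notes; versions, settings and strand handling are not given in the sources here. The tables hold only genes the authors selected (336 and 33), so the authors' adjusted p, the one test over all genes, is led with. Size factors were recovered from the deposited mean column (largest gap 0.0051 counts). The number of genes tested was recovered from p and adjusted p.

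Groups came from the labels. Fits of the listed genes used edgeR 4.0.16 (quasi-likelihood, filterByExpr keeping 331 of 336 and 33 of 33 genes, Benjamini-Hochberg over the genes tested), limma 3.58.1 and DESeq2 1.42.0 in R 4.3.3, tested on simulated data. The edgeR fit with TMM was the exception, since its p-values were adjusted over the 336 or 33 listed genes only, a milder adjustment. They borrow spread from selected genes only. Nothing says that mice were littermates or batches, and p-values cover the spread between these mice. Positions and exon lengths are from GENCODE M21. Named were the members, the listed genes of the junction and polarity lists, for each member the 2 listed genes nearest in pattern, and up to 3 examples of other lists, with Col1a2, Vim and the genes at the end added. One gene that this rule names is not reported here. The members and lists were chosen with earlier results of these data known. Mouse numbers differ between groups, so no pairing was used.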

Additional observations from a re-analysis of the deposited data

How the results depend on the processing

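Of the 72 alternatives for the diet ratios, 68 moved a value by less than 1 SD between mice, 0 changed a direction and 4 moved more, all with TMM over the listed genes, at log2 ratios of -1.82 for Cldn1, -1.37 for Ocln, -1.69 for Marveld2 and 0.12 for Marveld1. Where the groups did not overlap, most of these alternatives could not change a direction. TMM shifts the median of the listed genes by -0.64 for diet and -0.50 for PCN. The Dsg1c ratio with PCN, -1.29 on the log2 scale, was -1.77 with TMM and -0.84 as deposited, and -1.54 to -0.97 with 1 mouse left out. Of the 6 members, 4 passed an adjusted p under 0.01, 5 passed edgeR with TMM and 4 passed DESeq2 refitted with its own factors. The TMM fit was adjusted over the listed genes only, not over the genes tested. Among all 336 listed genes, edgeR with TMM called 66 higher and 119 lower. DESeq2 with its own factors called 15 higher and 121 lower, so the listed lower genes passed these 2 fits in general. With the Bonferroni adjustment 0 passed, with edgeR and the authors' factors 0, and 0 without a filter on low counts, while DESeq2 refitted with the authors' factors, an alternative chosen after seeing the data, called 1. With 1 mouse left out, edgeR called 0 of the 6 each time. Those fits called 1 to 7 higher and 0 to 2 lower of all 336 listed genes. Of all 336 listed genes, edgeR with the authors' factors called 8 higher and 1 lower (331 at an unadjusted p under 0.05). Dsg1c with PCN was called by TMM, adjusted over the 33 listed genes only, by DESeq2 with its own factors and by Bonferroni. Among those 33 genes, TMM called 7 higher and 12 lower, and DESeq2 with its own factors called 1 higher and 12 lower. With the authors' factors, edgeR, edgeR with no filter and DESeq2 each called 2 higher and 0 lower of them. Dsg1c was not called (0) by any of these fits with the authors' factors (DESeq2 adjusted p 0.289, unadjusted 6.86e-05). Leaving out 1 mouse gave 0 to 1 calls of Dsg1c, the 1 being without vehicle mouse 705. Over all fits, which were not all adjusted over the same number of genes, its adjusted p ran from 1.1e-05 to 1.0. Of the 2 other junction genes, 1 passed Bonferroni. No paired analysis was possible because the mouse numbers differ between groups. In chow-fed mice Dsg1c had the fewest reads of the members, 17 to 43 per mouse.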

Other observations

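Other cell adhesion genes were among the listed diet genes and were named after their values were seen. Cadm4, an immunoglobulin-type adhesion molecule, was 3.75-fold lower on HFD, from 80.9 ± 16.9 to 21.6 ± 7.59 normalized counts (SD, n = 3 each; DESeq2 adjusted p of 8.5e-05 in the authors' deposited table). Its relative Cadm3 was 1.90-fold higher, from 90.8 ± 24 to 172 ± 9.20 (SD, n = 3 each; deposited DESeq2 adjusted p 0.02378). Pcdh7, a protocadherin, was 2.27-fold higher, from 37.6 ± 7.2 to 85.6 ± 17.7 (SD, n = 3 each; deposited DESeq2 adjusted p 0.02027). Eppk1, which encodes epiplakin, a linker protein of intermediate filaments, was 1.94-fold higher, from 800 ± 169 to 1556 ± 281 (SD, n = 3 each; deposited DESeq2 adjusted p 0.0009761). For each of these genes every HFD-fed mouse lay on the same side of every chow-fed mouse, as for 99.4% of all listed genes.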
